A study of Homo sapiens with 4 samples.

Results

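YAP1 and its paralog WWTR1 (TAZ) are transcriptional coactivators that bind DNA through the TEAD factors, and the 10 genes described here are these coactivators, TEAD1, TEAD4 and 6 of their best known targets. They were taken by gene symbol from the platform annotation, and they are 10 of the 19775 genes that the arrays measured. Together they were read by 22 of 54613 probe sets (short sets of oligonucleotides that each report 1 transcript or group of transcripts). The members were YAP1, WWTR1, TEAD1, TEAD4, CCN1 (also called CYR61), CCN2 (also called CTGF), ANKRD1, AMOTL2, LATS2 and AXL. Expression was compared between NUGC3 cells, an established human gastric cancer line, with wild-type PRMT6 (control, 2 arrays) and NUGC3 cells in which PRMT6 was knocked out (2 arrays). PRMT6 is a methyltransferase of histone arginines. The knockout was made by lentiviral delivery of Cas9 with 1 guide, puromycin selection and limiting dilution. The number of clones behind the knockout arrays and any vector in the control cells were not given in the sources used here, and nothing said whether replicates came from separate cultures. The p-values therefore measure only the spread between these arrays, which may be technical.

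In the Hippo pathway, the kinases STK3 and STK4 activate LATS1 and LATS2, which phosphorylate YAP1 and WWTR1 and hold them in the cytoplasm. When the kinases are inactive, the coactivators enter the nucleus and bind TEAD factors at target genes such as CCN1, CCN2 and ANKRD1. Some targets, among them LATS2 and AMOTL2, act back on the coactivators as inhibitors. The pathway controls growth of epithelia, and YAP1 and TEAD activity is often raised in gastric carcinoma. The activity of YAP1 and WWTR1 is set largely by phosphorylation and location, which arrays of transcripts do not measure.

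The guide against PRMT6 is shown because it defines the knockout, in lower case and 5′ to 3′.
PRMT6 guide: gacggtactggacgtgggcg

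The promoters of CCN2, ANKRD1 and AXL, the members whose knockout and control means lay farthest apart, are shown for their matches to the core of the TEAD recognition site, GGAATG. Each run is the 250 bases before a transcription start, from RefSeq on GRCh38.p14, written 5′ to 3′ on the strand of the gene. Capitals mark GGAATG on either strand (CATTCC on the opposite one) and TGANTCA, where N is any base. TGANTCA is a loose form of the AP-1 site, the site of FOS and JUN dimers that often bind beside TEAD factors. AXL has 2 starts in the table, and both are shown.
CCN2, chr6:131951373-131951622, minus strand: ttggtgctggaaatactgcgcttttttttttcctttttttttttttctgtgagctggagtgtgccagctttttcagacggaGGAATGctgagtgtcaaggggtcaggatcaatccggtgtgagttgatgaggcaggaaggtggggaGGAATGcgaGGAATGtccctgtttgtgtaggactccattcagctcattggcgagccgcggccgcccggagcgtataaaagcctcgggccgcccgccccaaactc
ANKRD1, chr10:90921088-90921337, minus strand: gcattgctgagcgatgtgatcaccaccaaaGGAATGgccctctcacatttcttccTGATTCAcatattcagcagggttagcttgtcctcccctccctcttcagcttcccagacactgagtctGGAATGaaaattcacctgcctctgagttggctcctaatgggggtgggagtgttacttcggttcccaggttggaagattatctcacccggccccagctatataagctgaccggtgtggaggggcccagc
AXL first start, chr19:41218973-41219222, plus strand: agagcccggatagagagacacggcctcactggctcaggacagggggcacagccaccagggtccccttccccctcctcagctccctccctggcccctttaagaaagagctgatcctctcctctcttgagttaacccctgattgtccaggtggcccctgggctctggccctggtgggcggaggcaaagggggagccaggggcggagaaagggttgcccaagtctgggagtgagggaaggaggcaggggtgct
AXL second start, chr19:41226505-41226754, plus strand: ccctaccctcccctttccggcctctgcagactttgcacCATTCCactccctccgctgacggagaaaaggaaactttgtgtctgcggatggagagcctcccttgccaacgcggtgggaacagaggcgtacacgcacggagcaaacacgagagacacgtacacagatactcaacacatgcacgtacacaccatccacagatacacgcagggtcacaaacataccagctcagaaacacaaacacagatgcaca

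CCN2 had 3 GGAATG matches, beginning 169, 104 and 95 bases before the start, all on the strand of the gene. ANKRD1 had 2, at 220 and 128 bases, and a TGANTCA match at 195 bases, with T in the place of N. AXL had 0 in the first window and 1 on the opposite strand in the second, 212 bases before the start. Of 35116 RefSeq promoter windows of the same length, 11.9% held at least 1 GGAATG on either strand, 0.94% at least 2 and 0.0826% at least 3, while 6.57% held TGANTCA. The 2 motifs do not share bases in these windows. Promoter windows were found for 7 of the 10 members. Among the others, YAP1 had 1 match at 162 bases and AMOTL2 1 in the second of its 2 windows, while WWTR1 (2 windows) and LATS2 had 0. A match is a run of letters, not evidence of binding.

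The targeted gene came first as a check of the labels. PRMT6 read 7.66 on both control arrays and 6.87 and 6.91 on knockout arrays 1 and 2, in RMA log2 expression, the unit of all levels here. The log2 fold change was -0.77 (SE 0.073), with a limma adjusted p of 0.0502, so PRMT6 missed the threshold of 0.05. It passed after quantile (limma adjusted p = 0.0348) and cyclic loess normalization (0.0309) and among genes above the median level (0.0197). It also passed with the mean of probe sets (0.0324) and an intensity trend (0.0031). It was not called with adjustment over every probe set (0.114), with the replicate block (0.206) or when any 1 array was left out. Cas9 edits can leave a transcript in place, and where the probes lie against the cut was not examined, so the lower level checks the labels only in part. Carcinoma markers were bright, with a median control level of 11.95 over 7 epithelial genes, EPCAM, CDH1, CLDN4 and 4 keratins. Their control levels ran from 8.29 (CLDN4) to 13.64 (KRT18). Fibroblast markers (8 genes) had a median control level of 4.33, leukocyte markers (7) of 3.81 and markers of endothelium (6) of 4.71, and 0 genes of these 3 lists were called. Control replicate 2 stood apart from the other arrays: its upper quartile over all probe sets was 6.62, against 6.77 to 6.79 on the others. It read below control replicate 1 for 9 of the 10 members and for 60.9% of all genes above the median level. Values for the members are therefore given with and without that array, and its part in the results was not tested.

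None of the 10 genes was called changed over all genes (limma, Benjamini-Hochberg adjusted p 0.167 to 0.722, 2 arrays per group), against 94 of 19775 genes, or 0.475% (0.359% higher and 0.116% lower). At an unadjusted limma p under 0.05, 5 members were higher in the knockout (AXL, CCN2, ANKRD1, AMOTL2 and TEAD4) and 0 were lower. The same holds for 6.12% of all genes in the higher and 5.83% in the lower direction. Among the 12761 genes above the median level, where all members lie, 1004 were higher and 703 lower. With an intensity trend in limma's variance model, AXL, CCN2, ANKRD1 and AMOTL2 were called higher (adjusted p 0.00431, 0.048, 0.039 and 0.0465), where 797 genes (4.03%) were called and 2.31% of all genes were called higher. Under that model 7 members were higher at an unadjusted limma p under 0.05, against 8.27% of all genes, and 1, YAP1, was lower, against 6.27%. The shares under that model among genes above the median level were not taken. The median log2 fold change of the members was 0.21, against -0.0091 over all genes. The members were proposed with earlier results of these data in view, so these counts are a description.

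On the brightest probe set of each gene, the knockout values of all 10 members lay outside the range of the control values. They lay above both control values for 8 genes, both TEADs and all 6 targets, and below both for YAP1 and WWTR1. Groups that do not overlap were found for 43.3% of all genes, 21.7% higher and 21.6% lower. Among the 12761 genes above the median level, where all members lie, the share was 49.3%, with 28.0% higher and 21.3% lower. For a single gene, an exact two-sided permutation test over these 4 arrays cannot go below p = 0.333.

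**Figure D1:**
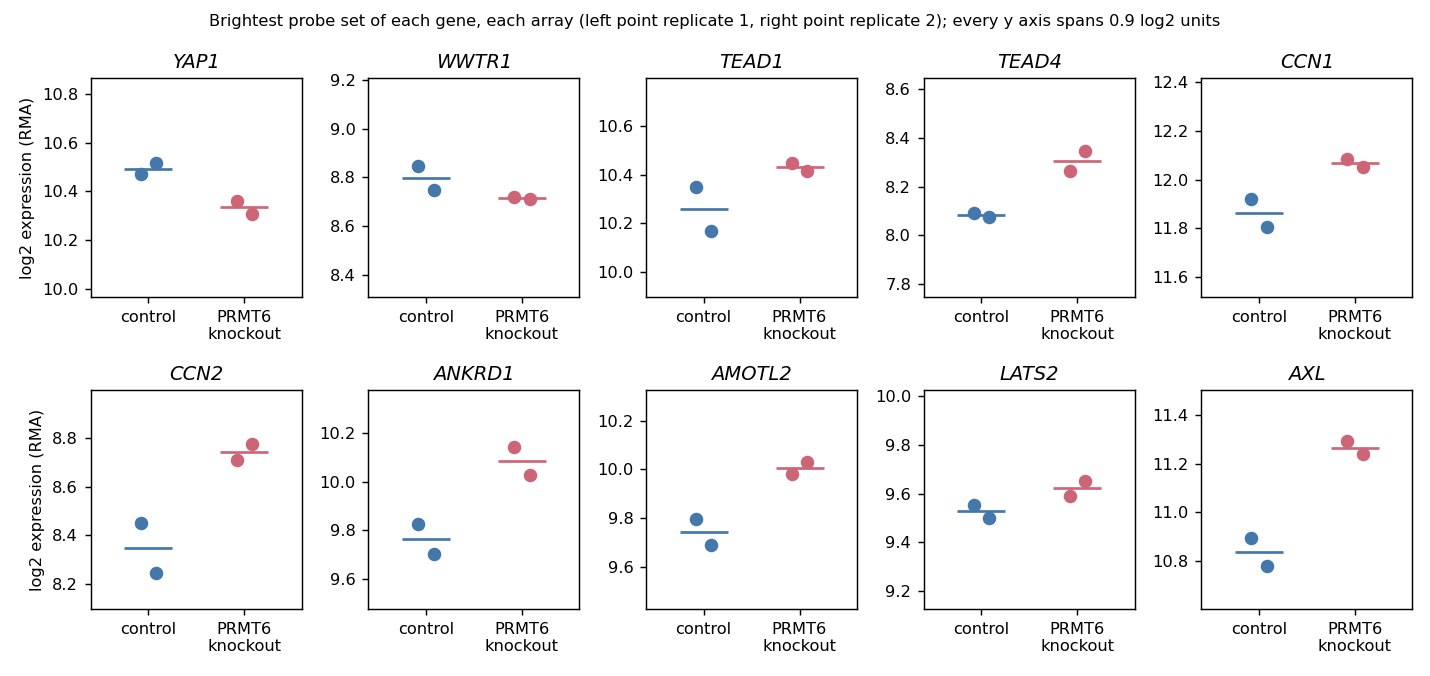
RMA log2 expression of the brightest probe set of each member on each array, with controls in blue and knockout in red; lines are group means and every y axis spans the same range. The knockout points of YAP1 and WWTR1 lie below both control points, and those of the other 8 genes lie above both.

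YAP1, the coactivator held in the cytoplasm by LATS kinases, was slightly lower in both knockout arrays on every probe set. Its brightest probe set read 10.47 and 10.52 on control arrays 1 and 2 and 10.36 and 10.31 on knockout arrays 1 and 2. The log2 fold change was -0.16 (SE 0.075, limma 95% interval -0.36 to 0.042), which is 1.12-fold lower. The other probe sets gave -0.13 and -0.14, and on all 3 the groups did not overlap. The transcript of YAP1 was thus 0.780 to 1.03 times the control level within that interval, and a larger fall was not covered by it. YAP1 gave -0.13 without control replicate 2.

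WWTR1, the second coactivator of the pair, showed values on both sides. Its brightest probe set read 8.85 and 8.75 in control and 8.72 and 8.71 in knockout cells, a log2 fold change of -0.082 (95% interval -0.29 to 0.13). The dimmer probe sets gave 0.035 and -0.088, and on both of them the groups overlapped. For WWTR1 the direction therefore depended on the probe set. The value of the brightest one moved to -0.13 without control replicate 2 and to -0.031 without control replicate 1.

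TEAD1 and TEAD4 are DNA-binding factors that recruit YAP1 and WWTR1 to target genes. TEAD1 read 10.35 and 10.17 in control and 10.45 and 10.42 in knockout cells, a log2 fold change of 0.17 (95% interval -0.075 to 0.42). The controls differed from each other by 0.18, about as much as the group means, and the value was 0.085 without control replicate 2. Its dimmer probe sets gave 0.15 and 0.39, the latter with control values of 6.32 and 5.76 and an interval from -0.16 to 0.95. TEAD4 was steadier: 8.09 and 8.08 in control against 8.26 and 8.35 in knockout cells, a log2 fold change of 0.22 (95% interval 0.017 to 0.43). Its second probe set gave 0.35, from 7.33 on both control arrays to 7.62 and 7.74. TEAD4 was 0.21 without control replicate 2, and its limma adjusted p over all genes was 0.383.

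**Figure D2:**
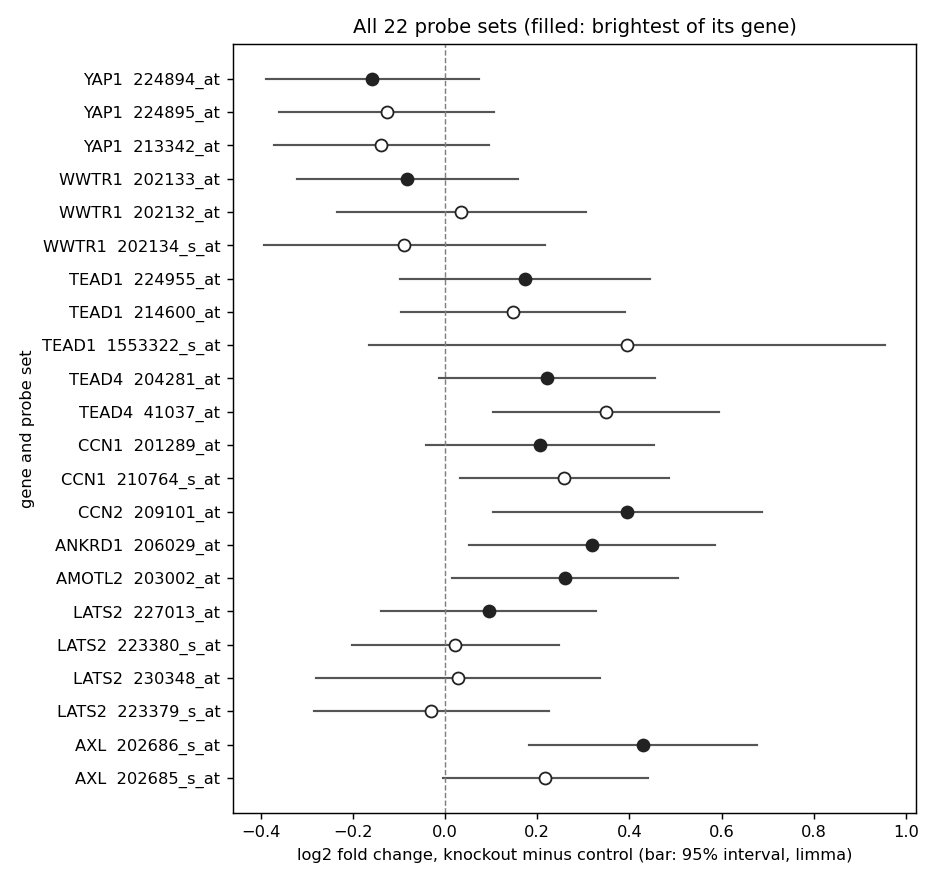
Log2 fold change (knockout minus control) of all 22 probe sets with the limma 95% interval; filled points mark the brightest probe set of a gene. YAP1 lies left of 0 on all 3 probe sets, WWTR1 and LATS2 lie on both sides, and TEAD1, TEAD4, CCN1, CCN2, ANKRD1, AMOTL2 and AXL lie right of 0 on every probe set.

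AXL, a receptor tyrosine kinase of the TAM family whose ligand is GAS6, had the highest log2 fold change of the 10 members. On the brightest probe set it read 10.89 and 10.78 in control and 11.29 and 11.24 in knockout cells. The lowest knockout value lay 0.34 above the highest control value, while the controls differed by 0.11. The log2 fold change was 0.43 (SE 0.083, 95% interval 0.21 to 0.65), or 1.35-fold, with a limma adjusted p of 0.167. The dimmer probe set gave 0.22, from 7.59 on both control arrays to 7.82 and 7.80. AXL gave 0.37 without control replicate 2, and the change ranked at the 96.9th percentile of all genes.

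CCN2 and CCN1 encode secreted matrix-associated proteins and are the targets most used as readouts of YAP1. CCN2, on its only probe set, read 8.45 and 8.24 in control and 8.71 and 8.78 in knockout cells. The log2 fold change was 0.40 (SE 0.10, 95% interval 0.12 to 0.67, limma adjusted p = 0.263), or 1.31-fold. Its controls differed by 0.21, the widest gap among the brightest probe sets of the members, and the value was 0.29 without control replicate 2. CCN1 read 11.92 and 11.80 in control and 12.08 and 12.05 in knockout cells, a log2 fold change of 0.21 (95% interval -0.013 to 0.42). Its second probe set gave 0.26, from 11.57 and 11.54 to 11.79 and 11.83. CCN1 gave 0.15 without control replicate 2.

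ANKRD1, a nuclear ankyrin-repeat protein, and AMOTL2, a junction protein that binds YAP1, each had 1 probe set. ANKRD1 read 9.83 and 9.70 in control and 10.14 and 10.03 in knockout cells, a log2 fold change of 0.32 (SE 0.091, 95% interval 0.076 to 0.56). AMOTL2 read 9.80 and 9.69 against 9.98 and 10.03, a log2 fold change of 0.26 (SE 0.081, 95% interval 0.043 to 0.48). For both genes the knockout values were separated from the controls, by at least 0.20 for ANKRD1 and 0.18 for AMOTL2. Their limma adjusted p values were 0.300 and 0.339, and without control replicate 2 they gave 0.26 and 0.21.

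LATS2, the kinase that is both an inhibitor and a target of YAP1, gave the smallest values of the 6 targets. On the brightest probe set it read 9.55 and 9.50 in control and 9.59 and 9.65 in knockout cells, a log2 fold change of 0.094 (95% interval -0.11 to 0.30). The dimmer probe sets gave 0.022, 0.029 and -0.030, and on the last 2 the groups overlapped. LATS2 gave 0.069 without control replicate 2, 0.062 without knockout replicate 2 and 0.029 as the mean of its probe sets. The interval allows LATS2 transcript between 0.927 and 1.23 times the control level.

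Of the 16 probe sets of the TEADs and the 6 targets, 14 lay higher in the knockout with no overlap and 2, both of LATS2, overlapped. Without LATS2, a set drawn with the values in view, all 12 probe sets lay higher with no overlap. Their log2 fold changes were between 0.15 and 0.43. Over all 22 probe sets, 14 were higher and 4 lower without overlap. Of all 54613 probe sets, 10778 were higher and 10331 lower without overlap, or 38.7% in either direction. Each of the 22 lay above the median of every array, and the share among such probe sets was not taken. When all probe sets were tested, 0 of the 22 were called by limma (smallest adjusted p 0.342, for AXL), against 81 of all probe sets (0.148%). At an unadjusted limma p under 0.05 there were 6 of the 22, against 8.65% of all probe sets. Probe sets of 1 gene share its transcripts and arrays and are not independent.

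**Figure D3:**
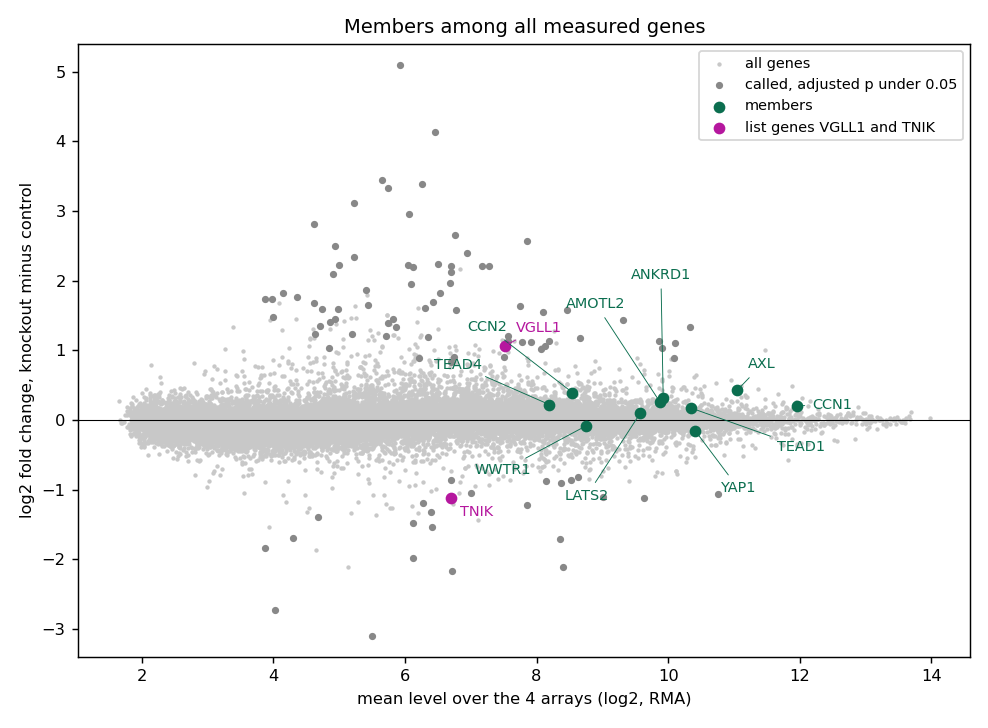
Log2 fold change against mean RMA log2 level for 19775 genes (light grey), genes called at an adjusted p under 0.05 (dark grey), the 10 members (green) and the list genes VGLL1 and TNIK (purple). The members lie between -0.16 and 0.43, inside the cloud of genes that were not called.

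The spread set a limit on what could be called. The smallest absolute log2 fold change among the 94 called genes was 0.82. At its own SE, a member would have needed a log2 change between 0.80 (YAP1) and 1.09 (CCN2) to reach the largest p that was called. Differences of the size measured for AXL, CCN2 or ANKRD1 therefore could not be called over all genes with this variance model, whereas the model with an intensity trend called them, and missing the threshold does not show that they were equal. Leaving out 1 array, which cannot turn the sign where groups do not overlap, gave log2 fold changes of 0.37 to 0.49 for AXL and 0.29 to 0.50 for CCN2.

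**Figure D4:**
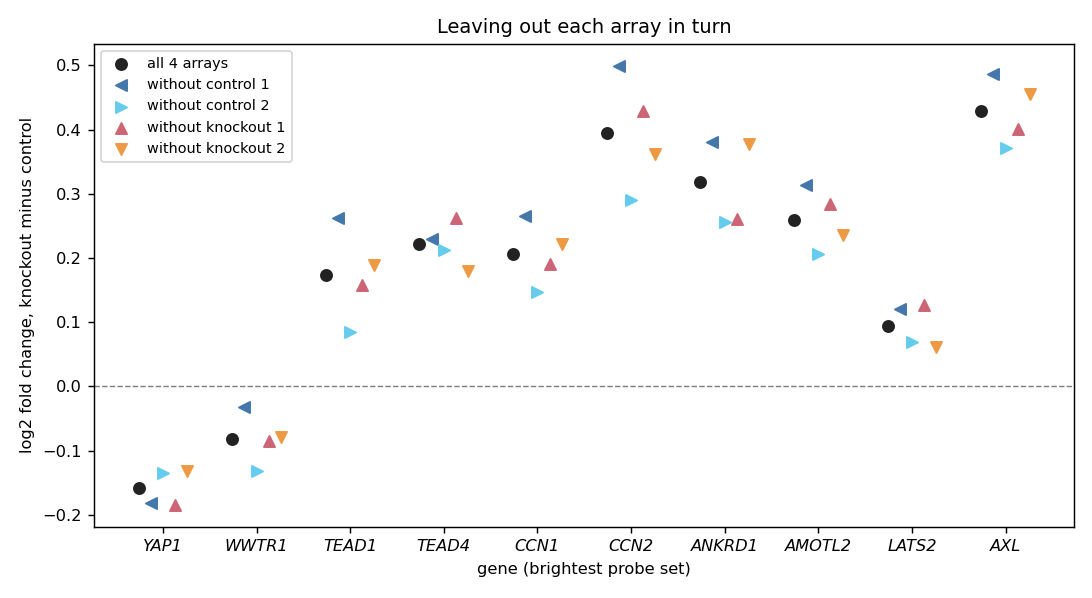
Log2 fold change of each member with all 4 arrays (black circle) and with each array left out in turn. The side of 0 is fixed because the groups do not overlap. The values without control replicate 2 are the lowest for TEAD1, CCN1, CCN2, ANKRD1, AMOTL2 and AXL, and also for WWTR1 (-0.13), there the farthest from 0.

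The other genes of the pathway were taken from 7 lists by role, some of which also hold members, with 75 genes besides them, of which 71 were measured with a probe set of their own symbol. Of these 71, 1 was called over all genes. Of the 71 genes, 20 lay above and 21 below both control values, against 21.7% and 21.6% of all genes. Among genes above the median level, where most of the 71 lie, the shares were 28.0% and 21.3%. Both pairs of shares stand beside the counts above and below the controls in each list that follows. The median log2 fold change of the 71 genes was 0.011, against -0.0091 over all genes.

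Among TEAD factors and vestigial-like cofactors (8 genes), VGLL1 rose. VGLL1 is a cofactor that binds TEAD factors at the surface used by YAP1. On the brightest probe set it read 7.08 and 6.89 in control and 8.07 and 8.02 in knockout cells, a log2 fold change of 1.06 (SE 0.096, limma adjusted p = 0.0466), or 2.09-fold. Its second probe set gave 0.84, from 6.10 and 5.78 to 6.84 and 6.71, while the dimmest, at 4.08 and 4.10 in control, gave -0.17. VGLL1 was no longer called with adjustment over every probe set (0.0941), with the mean of its probe sets (0.58, adjusted p = 0.101), with the replicate block (adjusted p = 0.165) and when any 1 array was left out (0.97 to 1.15, smallest adjusted p 0.141). TEAD2, another member of the TEAD family, gave -0.61 (limma adjusted p = 0.289) and lay lower without overlap on all 4 of its probe sets, at -0.31 to -1.02. TEAD3 gave 0.094 with overlapping groups, and the median of the list was 0.060.

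Of the Hippo kinase core and scaffolds, 18 of 20 genes were measured, 0 were called, 4 lay above and 7 below the controls, and the median was 0.012. At an unadjusted limma p under 0.05, 0 of the 18 were higher and 4 lower, against 6.12% and 5.83% of all genes. TNIK, a MAP4K-family kinase that also acts in WNT signalling, read 7.27 and 7.23 in control and 6.02 and 6.25 in knockout cells. Its log2 fold change of -1.12 (SE 0.11) missed the threshold with a limma adjusted p of 0.0502, and it passed after quantile (adjusted p = 0.0322) and cyclic loess normalization (adjusted p = 0.0229), among genes above the median level (0.0222), with the mean of its probe sets (0.0165) and with an intensity trend (0.0027). TNIK was not called with adjustment over every probe set (0.100), with the replicate block (0.200) or when any 1 array was left out (limma adjusted p 0.141 to 0.677). The other 3 probe sets of TNIK gave -1.11, -0.90 and -0.88. MAP4K4, a kinase that can act on LATS1 and LATS2, gave -0.59 (limma adjusted p = 0.123), and TAOK3 gave -0.34 (limma adjusted p = 0.363). MAP4K4 lies on chromosome 2, where 35 of its 40 neighbours (20 on each side, genes above the median level) were also negative (median -0.35), and MOB1A, a LATS activator on the same chromosome at -0.22, had 29 of 40 (median -0.16). The dimmer probe sets of MOB1A gave -0.25 without overlap, and -0.032 and -0.099 with overlapping groups. For TNIK the 40 neighbours had a median of 0.026. For VGLL1, on chromosome X, 27 of 40 neighbours were positive and 13 negative (median 0.053). The part of these neighbourhoods in the values was not tested.

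A further list joined junction and polarity proteins, 14-3-3 proteins and proteins that bind YAP1 (19 of 20 measured). It held 0 called genes, with 6 above and 6 below the controls and a median of 0.011. DLG1, a polarity scaffold, gave 0.39 (limma adjusted p = 0.176). Its dimmer probe sets gave 0.49, 0.56, 0.68, 0.47, -0.10 and 0.18, and on those at 0.47 and -0.10 the groups overlapped. SFN, the 14-3-3 sigma protein, gave -0.34 (limma adjusted p = 0.211) with -0.41 and -0.36 on its other probe sets. PTPN14, a phosphatase that binds YAP1 and is itself a target, gave 0.30 (limma adjusted p = 0.262), and its 3 dimmer probe sets gave 0.34 to 0.59.

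Other targets were taken from a published YAP and TAZ target signature, written down from memory. Of 16 listed genes besides the members, 15 were measured, 0 were called, 5 lay above and 3 below the controls, and the median log2 fold change was 0.043. At an unadjusted limma p under 0.05 there were 3 higher and 1 lower of the 15, beside the same 6.12% and 5.83%. ASAP1, an ARF GTPase-activating protein, gave 0.39 on its brightest probe set (limma adjusted p = 0.187) and 0.38 to 0.75 on 4 others, all without overlap. NT5E, the ecto-5'-nucleotidase CD73, gave 0.28, but its 3 dimmer probe sets gave 0.13, -0.12 and -0.13. The median over the 6 member targets was 0.29, and the difference between these sets was not tested.

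In the CCN family (6 genes) 0 were called: CCN2 and CCN1 lay above the controls, CCN6 (-0.30) and CCN4 (-0.26) lay below on dim probe sets, and the median was 0.0086. The dimmer probe set of CCN6 gave 0.051 with overlapping groups. Among the TAM receptors and their ligands (5 genes) 0 were called and the median was -0.10. AXL stood at 0.43, its ligand GAS6 at -0.20 and -0.24 on 2 probe sets, and the dim ligand PROS1 at -0.72 (limma adjusted p = 0.129). Of 8 AP-1 genes, partners of TEAD factors at many enhancers, 0 were called and the median was 0.12. Of these genes, 6 lay above and 0 below the controls. All 8 are above the median level, where 28.0% of genes lay higher and 21.3% lower. FOSL2 gave 0.25, ATF3 0.21 and JUND 0.17, none of them past the threshold (limma adjusted p 0.367, 0.576 and 0.498). The probe sets of FOSL2 were mixed: a second gave 0.36, and 3 dimmer ones gave -0.13 (lower without overlap), -0.071 and -0.0090. For JUND the other probe sets gave 0.29, 0.21 and -0.072, and for ATF3 they gave 0.30 and 0.11.

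**Figure D5:**
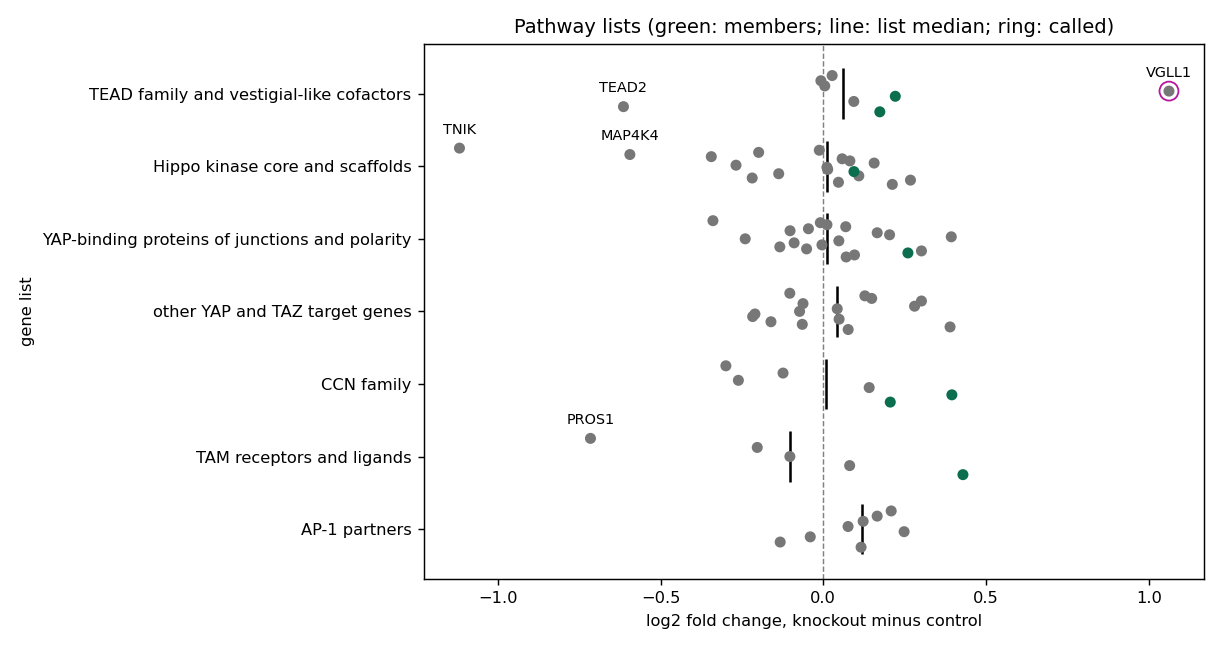
Log2 fold change of the measured genes of 7 pathway lists; green points are members, black lines are list medians and the ring marks VGLL1, the 1 gene called. The row labelled YAP-binding also holds junction and polarity proteins for which no binding to YAP1 is claimed here. List medians lie between -0.10 and 0.12.

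CCN1, CCN2 and AXL are also abundant in fibroblasts, so fibroblast markers were read beside them. Of the 8 markers 2 lay above and 2 below the controls, against 21.7% and 21.6% of all genes, with a median log2 fold change of -0.11. Their summed log2 level was 33.1 and 35.8 on control arrays 1 and 2 and 33.1 and 33.4 on the knockout arrays, so control replicate 2 was the highest. The lower quartile over all probe sets was also highest on control replicate 2, at 3.29 against 3.21 to 3.22 on the other arrays. DCN, LUM, POSTN, COL1A2 and COL3A1 lay below the median level on average over the arrays. COL1A1 (7.42 in control), THY1 (5.17) and PDGFRB (4.86) lay above it. Epithelial markers gave a median of 0.082, with summed log2 levels of 80.7 to 81.4 in control and 81.5 to 81.6 in knockout cells, and 0 of 7 were called. They moved in both directions: 4 lay above the controls, with KRT7 at 0.49, and 2 below, with CDH1 at -0.35. Leukocyte and endothelial markers gave medians of -0.17 and -0.053. The summed log2 level of the leukocyte markers was 27.6 to 28.9 in control and 27.5 to 27.7 in knockout cells. That of the endothelial markers was 24.8 to 26.3 in control and 24.9 to 25.2 in knockout cells. In bulk RNA, fewer cells that express a gene and less RNA per cell cannot be told apart.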

How the data were processed

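Total RNA of 4 samples was hybridised to single-colour Affymetrix arrays with 1 array per sample. The table the authors deposited holds RMA values on the log2 scale for every probe set; RMA and affy are named in the submitters' processing notes, with no settings. Upper quartiles still differed between arrays (6.62 to 6.79), so the distributions were not identical, and dim probe sets have compressed differences. The number of arrays limits the precision. The platform annotation gave 1 symbol for 41091 probe sets, several for 1801 and none for 11721, and 41037 matched the GRCh38.p14 gene table by gene ID. A gene was represented by its brightest probe set on average.

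Groups were compared with limma 3.58.1 in R 4.3.3 (lmFit, eBayes, two-sided), with group as the only term and Benjamini-Hochberg adjustment over all 19775 genes or, for single probe sets, over all 54613. A gene was called at an adjusted p under 0.05. The fit was also run on simulated arrays with independent noise and known changes, which checks the code and not the results here. Members and lists were chosen with earlier results of these data known. Named were all members, PRMT6, called list genes and otherwise up to 3 genes per list with the smallest p; TEAD2, TEAD3, MOB1A and CCN4, and the markers singled out, were chosen after their values were seen. Alternatives were another probe set rule, 2 normalizations, a filter on low levels, an intensity trend, a replicate block and leaving out each array. Promoters came from RefSeq.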

Additional observations from a re-analysis of the deposited data

How the results depend on the processing

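Of the 11 alternatives, 3 could turn the direction of a member (the mean of probe sets, quantile and cyclic loess normalization), and none of these did; the others leave the estimates as they are or leave out 1 array of groups that do not overlap. The median log2 fold change of the members lay between 0.18 and 0.26. The number of members without overlap was 8 to 10. The count of called members was 0 except with an intensity trend, where it was 4. Called genes numbered 94 as reported (71 higher) and 48 when all probe sets were tested, 195 after quantile (124 higher) and 231 after cyclic loess normalization (147 higher), 309 among genes above the median level and 797 with an intensity trend. The count was 0 when any 1 array was left out, for genes, probe sets and list genes alike. For probe sets, 81 were called as reported, 123 after cyclic loess, 167 above the median level and 797 with a trend. List genes besides the members numbered 1 as reported, 0 when all probe sets were tested, 2 after quantile, after cyclic loess and above the median level, and 8 with a trend; these and VGLL1, TNIK and PRMT6 were added to the alternatives after seeing the data. With the replicate number as a block, 0 genes, 0 probe sets and 0 list genes were called. The labels do not say that the numbers pair the samples, and the correlation of the replicate deviations across genes was -0.0665. With fewer arrays or the block, 1 residual degree of freedom is lost; a lone array is then assumed to vary like the other group. The cause of the other shifts was not tested.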
